A study of Mus musculus with 8 samples.

Results

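The genes described here are 9 neighbours of the Ink4 region on mouse chromosome 4: Focad, Hacd4, Klhl9, Gm12602, Mtap, Gm12606, Cdkn2a, Cdkn2b and Dmrta1, in chromosomal order. They were taken by name, through Ensembl identifiers, from a table of 55401 gene identifiers, and they were selected on their CPM in these same libraries as well as on their position, so their levels are a description and carry no test. All 9 passed the low-count filter that left 18882 genes for testing. The libraries hold polyadenylated RNA from 3 mouse lines named for epithelioid hemangioendothelioma, a vascular tumour whose cells resemble endothelium: EHE26 (n = 2), EHE17 (n = 3) and EHE6 (n = 3). The labels give the line and a replicate number, and no genotype, strain, age, treatment, passage or clonal origin for any line. Whether the Ink4 region carries an engineered or deleted allele in any line is thus not stated, and it was not tested here, since the files hold gene counts alone. Nothing in them says that replicates are separate cultures, so p-values measure only the spread between these libraries.

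Cdkn2a encodes a pair of unrelated proteins from separate first exons: p16INK4a, which inhibits the cyclin D kinases CDK4 and CDK6, and p19ARF, which binds MDM2 and so stabilises p53. Cdkn2b encodes p15INK4b, a second inhibitor of the same kinases. In endothelial cells, as in most others, the locus is held silent by Polycomb proteins and is activated in senescence and by oncogenic signals, and it is often deleted in tumours together with Mtap, the enzyme that salvages methylthioadenosine left over from polyamine synthesis. Gene counts do not separate the p16INK4a and p19ARF transcripts, which share their later exons.

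Levels are CPM, the count of a gene relative to the TMM-scaled library size, and spans are on GRCm38 (mm10), counted from 1. Total counts were 44620965 to 96237665 per library. Replicate 3 of EHE6 and, less so, replicate 3 of EHE17 stood apart from the other libraries of their lines and nearer to EHE26 on the first principal component, which held 56.2% of the variance of log2 CPM. Its scores were 126 and 148 for EHE26, -114, -103 and 41.7 for EHE17, and -106, -122 and 128 for EHE6, in the order of replicate number. Of 12 endothelial markers, 11 were at or above 1 CPM in every library and none was at 0. Cldn5, the other, was at 7.95 and 0.526 CPM in EHE26, 279 to 770 CPM in EHE17 and 403, 287 and 1.05 CPM in EHE6. The summed level of the 12 was 4851 to 6200 CPM in EHE26, 8013 to 13906 CPM in EHE17 and 3339 to 15349 CPM in EHE6. Markers of other cell types had summed levels, over all 8 libraries, of 298 to 1803 CPM for 8 fibroblast genes, 18.3 to 68.4 CPM for 8 leukocyte genes, 1.18 to 105 CPM for 8 epithelial genes and 7.82 to 672 CPM for 8 smooth muscle and pericyte genes. Of the epithelial genes, Epcam, Cdh1 and Cldn4 had no read in replicate 3 of EHE17 or of EHE6, while Krt18 and Krt19 were at 89.2 and 14.7 CPM in replicate 3 of EHE6, the library with the highest epithelial sum. The T cell gene Cd3e had none in 6 of the 8 libraries. The part of other cells in the levels below was not tested.

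The starts of the INK4 and ARF transcripts lie on the minus strand, and the 250 bases before each of the 3 are shown because Cdkn2a and Cdkn2b had their lowest level in the same library. They are RefSeq sequences of GRCm38.p6, written 5′ to 3′, with matches to 4 motifs in capitals: the GC box GGGCGG, the cyclic AMP response element TGACGTCA, the AP-1 site TGANTCA and the TEAD site GGAATG, each searched on both strands. The first is the upstream start of Cdkn2a, which serves p19ARF, the second its downstream start, which serves p16INK4a, and the third that of Cdkn2b.
Cdkn2a, upstream start, chr4:89294620-89294869: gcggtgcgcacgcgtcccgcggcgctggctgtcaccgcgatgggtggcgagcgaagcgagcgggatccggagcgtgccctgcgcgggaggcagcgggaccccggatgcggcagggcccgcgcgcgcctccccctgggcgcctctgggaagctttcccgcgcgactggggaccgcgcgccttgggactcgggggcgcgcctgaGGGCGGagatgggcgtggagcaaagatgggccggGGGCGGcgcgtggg
Cdkn2a, downstream start, chr4:89282193-89282442: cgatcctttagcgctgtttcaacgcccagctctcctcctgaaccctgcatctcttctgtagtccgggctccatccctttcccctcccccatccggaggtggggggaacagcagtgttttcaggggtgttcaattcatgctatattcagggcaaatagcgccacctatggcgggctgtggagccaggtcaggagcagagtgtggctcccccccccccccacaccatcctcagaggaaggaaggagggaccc
Cdkn2b, chr4:89311033-89311282: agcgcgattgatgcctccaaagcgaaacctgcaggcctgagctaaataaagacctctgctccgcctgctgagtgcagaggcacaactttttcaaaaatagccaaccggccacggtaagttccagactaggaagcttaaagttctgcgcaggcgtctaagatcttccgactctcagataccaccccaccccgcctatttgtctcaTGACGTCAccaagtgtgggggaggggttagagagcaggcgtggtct

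The upstream Cdkn2a window held 40 CpG dinucleotides, against 7 in the downstream window and 12 in that of Cdkn2b. Its share of G and C was 78.4%, and that of the Cdkn2b window 53.6%. The median over 32851 promoter windows of the same length was 52.4% G and C. The upstream Cdkn2a window had 2 matches to the GC box, which 32.7% of all windows hold, and the Cdkn2b window had 1 match to the cyclic AMP response element, which 1.55% hold. AP-1 and TEAD letters, found in 6.75% and 12.6% of all windows, were in none of the 3.

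Cdkn2b (ENSMUSG00000073802, chr4:89306299-89311039) was read at 64.6 and 61.3 CPM in EHE26, at 444, 482 and 88.0 CPM in EHE17 and at 333, 335 and 1.58 CPM in EHE6, in the order of replicate number. EHE26 lay below every EHE17 library, and EHE6 spread to both sides of it through replicate 3, where 75 reads were counted against 24717 and 23746 in replicates 1 and 2. The means were 63.0 ± 2.35 CPM in EHE26, 338 ± 217 CPM in EHE17 and 223 ± 192 CPM in EHE6 (SD). The log2 ratio of mean CPM was -2.42 for EHE26 over EHE17, -1.83 for EHE26 over EHE6 and 0.60 for EHE17 over EHE6. EHE17 and EHE6 overlapped, as did EHE26 and EHE6, and only EHE26 and EHE17 did not overlap, with a gap between them that was smaller than the SD of EHE17.

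Cdkn2a (ENSMUSG00000044303, chr4:89274471-89294653) had 1.75 and 2.17 CPM in EHE26, 8.64, 4.62 and 4.07 CPM in EHE17 and 3.88, 4.56 and 0.0210 CPM in EHE6. Its values again did not overlap between EHE26 and EHE17, and replicate 3 of EHE6 was the lowest of the 8 libraries. That last value is 1 read, and its 95% Poisson interval is 0.000532 to 0.117 CPM, which covers counting error only. Line means were 1.96 ± 0.299 CPM in EHE26, 5.77 ± 2.49 CPM in EHE17 and 2.82 ± 2.45 CPM in EHE6, with a log2 ratio of mean CPM of -1.56 for EHE26 over EHE17, -0.52 for EHE26 over EHE6 and 1.03 for EHE17 over EHE6.

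Gm12606 (ENSMUSG00000087659, chr4:89235699-89273403), annotated as a long intergenic RNA on the same strand, starts 1.07 kb downstream of Cdkn2a and followed it across the libraries. Gm12606 was at 10.2 and 8.22 CPM in EHE26, 52.96, 25.5 and 28.2 CPM in EHE17 and 27.7, 31.4 and 0.546 CPM in EHE6. The libraries ranked as for Cdkn2a in that EHE26 lay below all of EHE17 and replicate 3 of EHE6 lay below everything. Its means were 9.23 ± 1.42 CPM in EHE26, 35.5 ± 15.1 CPM in EHE17 and 19.9 ± 16.9 CPM in EHE6, and its log2 ratio of mean CPM was -1.95 for EHE26 over EHE17, -1.11 for EHE26 over EHE6 and 0.84 for EHE17 over EHE6. No other annotated gene overlaps Cdkn2a, Cdkn2b or Gm12606, but exons of Cdkn2a and Cdkn2b resemble each other, and how the counting treated reads that fit both is not given in the sources used here.

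**Figure D1:**
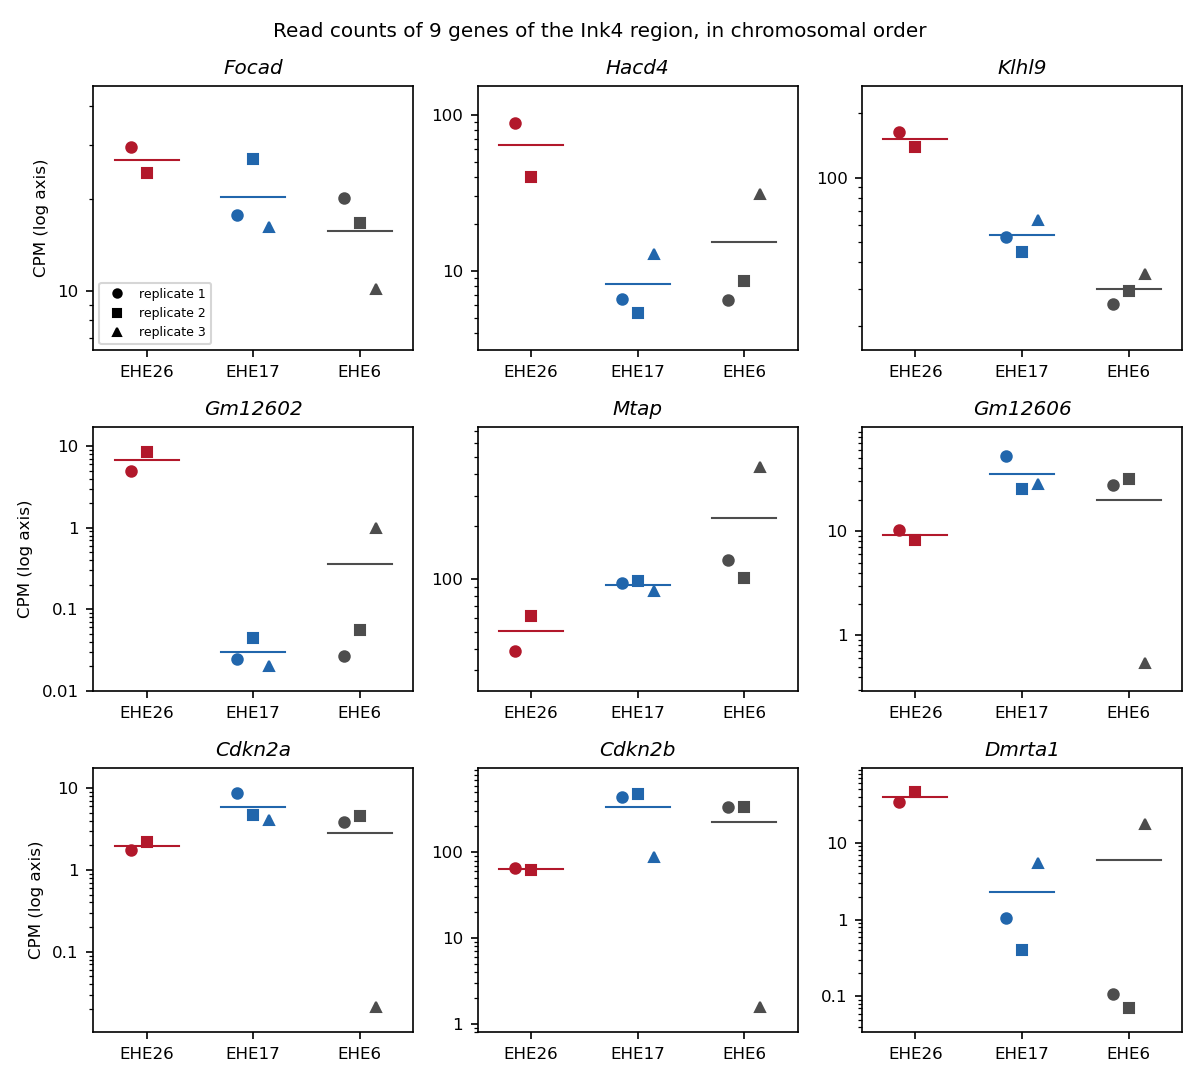
CPM of the 9 genes (log axis, one panel per gene) in each library of EHE26, EHE17 and EHE6, with marker shape for the replicate number and a bar at the mean of the line. Replicate 3 of EHE6 is the lowest point for Gm12606, Cdkn2a and Cdkn2b and the highest for Mtap.

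Per kilobase of annotated exon, Cdkn2b was the most abundant of the 3 in every library. Its level per kilobase was 31.2 and 23.8 times that of Cdkn2a in EHE26, 43.3, 88.0 and 18.2 times in EHE17 and 72.4, 62.0 and 63.2 times in EHE6. Gm12606 stood at 5.15 and 3.34 times Cdkn2a per kilobase in EHE26, 5.40, 4.86 and 6.09 times in EHE17 and 6.30, 6.07 and 22.9 times in EHE6, where the last ratio rests on the single Cdkn2a read. In replicate 3 of EHE17 Cdkn2b was 5.26-fold below the mean of replicates 1 and 2, and Cdkn2a and Gm12606 were 1.63-fold and 1.39-fold below.

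**Figure D2:**
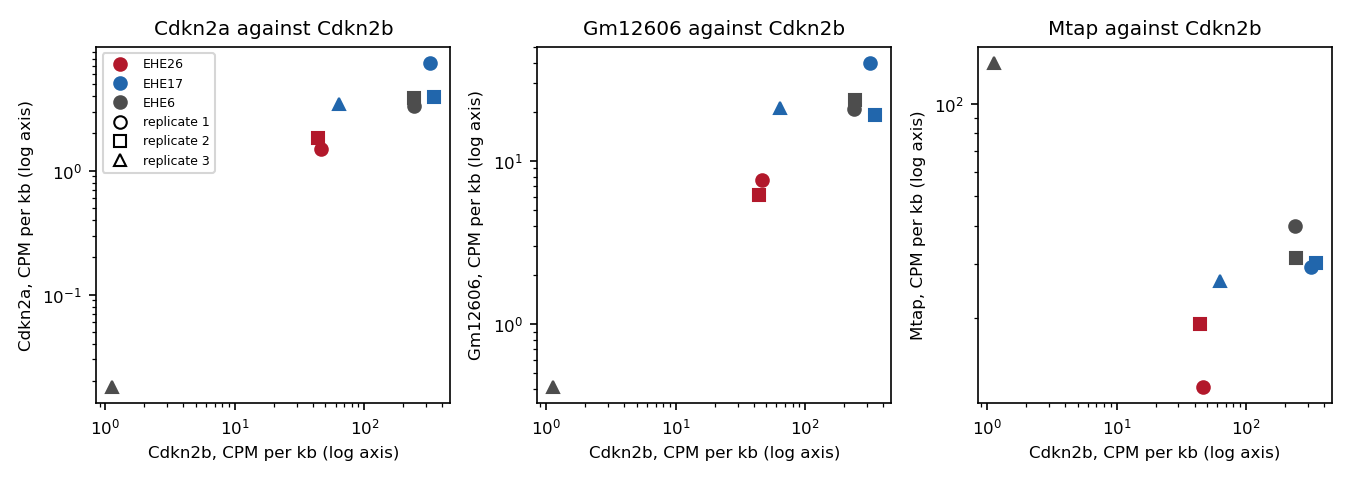
Level of Cdkn2a, Gm12606 and Mtap against Cdkn2b in each library, in CPM per kilobase of exon (log axes), coloured by line with marker shape for the replicate number. Cdkn2a and Gm12606 are low where Cdkn2b is low, while the library with the least Cdkn2b, replicate 3 of EHE6 at 1.13 CPM per kilobase, has the most Mtap, 136 CPM per kilobase.

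Mtap (ENSMUSG00000062937, chr4:89137122-89181081, plus strand) lies 93.4 kb from Cdkn2a, beyond Gm12606. It was read at 38.5 and 61.6 CPM in EHE26, 95.1, 97.6 and 85.3 CPM in EHE17 and 129, 101 and 437 CPM in EHE6. The 3 lines did not overlap in any pair: EHE26 was lowest, EHE17 came next, and EHE6 was highest, the closest libraries of EHE17 and EHE6 being replicate 2 of each. Means were 50.1 ± 16.4 CPM in EHE26, 92.7 ± 6.49 CPM in EHE17 and 222 ± 186 CPM in EHE6. The log2 ratio of mean CPM was -0.89 for EHE26 over EHE17, -2.15 for EHE26 over EHE6 and -1.26 for EHE17 over EHE6, and without the third replicates of EHE17 and EHE6 these ratios were -0.94, -1.20 and -0.26. Replicate 3 of EHE6, with the fewest reads of Cdkn2a and Cdkn2b, thus had 3.80 times the mean Mtap level of replicates 1 and 2.

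Dmrta1 (ENSMUSG00000043753, chr4:89679436-89694772), a transcription factor gene of the DMRT family 368 kb beyond Cdkn2b, was highest where Cdkn2b was low, in EHE26 and the third replicates. The extremes were not mirrored, as Dmrta1 was highest in EHE26 and Cdkn2b lowest in replicate 3 of EHE6. The level of Dmrta1 was 33.8 and 45.7 CPM in EHE26, 1.06, 0.398 and 5.50 CPM in EHE17 and 0.108, 0.0706 and 17.7 CPM in EHE6. EHE26 was above all other libraries, and in EHE17 and EHE6 replicate 3 was the highest. The values of EHE6 replicates 1 and 2 are 8 and 5 reads, with 95% Poisson intervals of 0.0465 to 0.212 and 0.0229 to 0.165 CPM. Dmrta1 averaged 39.7 ± 8.39 CPM in EHE26, 2.32 ± 2.77 CPM in EHE17 and 5.96 ± 10.2 CPM in EHE6. Its log2 ratio of mean CPM was 4.10 for EHE26 over EHE17, 2.74 for EHE26 over EHE6 and -1.36 for EHE17 over EHE6. Without EHE6 replicate 3 the last was 4.70 and the EHE26 over EHE6 ratio 8.80.

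Gm12602 (ENSMUSG00000085569, chr4:89100664-89128226), a noncoding transcript on the far side of Mtap, was at 4.99 and 8.44 CPM in EHE26, 0.0249, 0.0443 and 0.0201 CPM in EHE17 and 0.0269, 0.0564 and 0.988 CPM in EHE6. The EHE17 values are 2, 4 and 1 reads, and those of EHE6 are 2, 4 and 47 reads, so its level outside EHE26 and EHE6 replicate 3 is close to the limit of counting. Its means were 6.71 ± 2.45 CPM in EHE26, 0.0297 ± 0.0128 CPM in EHE17 and 0.357 ± 0.546 CPM in EHE6. EHE26 was above every other library, at a log2 ratio of mean CPM of 7.82 over EHE17 and 4.23 over EHE6, and of 7.33 over EHE6 without replicate 3 of that line.

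Klhl9 lies inside the interferon gene cluster, and Hacd4 and Focad lie beyond it as seen from Cdkn2a. Klhl9 (ENSMUSG00000070923, chr4:88718292-88722465), an adaptor of a CUL3 ubiquitin ligase that acts in mitosis, was read at 163 and 139 CPM in EHE26, 52.5, 44.7 and 63.3 CPM in EHE17 and 25.4, 29.2 and 35.2 CPM in EHE6. The lines did not overlap in any pair and stood in the order EHE26, EHE17, EHE6, and their ratios varied less with the third replicates than those of Hacd4, Dmrta1 and Gm12602. Means were 151 ± 17.2 CPM in EHE26, 53.5 ± 9.35 CPM in EHE17 and 30.0 ± 4.96 CPM in EHE6 (SD). The log2 ratio of mean CPM was 2.34 for EHE26 over EHE6, 1.499 for EHE26 over EHE17 and 0.84 for EHE17 over EHE6, and 2.47, 1.64 and 0.83 without the third replicates.

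Hacd4 (ENSMUSG00000028497, chr4:88396144-88438928), a dehydratase of very-long-chain fatty acid synthesis, was at 88.5 and 40.0 CPM in EHE26, 6.61, 5.32 and 12.9 CPM in EHE17 and 6.47, 8.62 and 31.0 CPM in EHE6. EHE26 was above every other library, and replicate 3 was the highest of EHE17 and of EHE6. Hacd4 averaged 64.3 ± 34.3 CPM in EHE26, 8.27 ± 4.03 CPM in EHE17 and 15.4 ± 13.6 CPM in EHE6. The log2 ratio of mean CPM was 2.96 for EHE26 over EHE17, 2.06 for EHE26 over EHE6 and -0.90 for EHE17 over EHE6, and the last was 0.13 without EHE6 replicate 3.

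Focad (ENSMUSG00000038368, chr4:88094629-88411011), which encodes a focal adhesion protein, varied least: 29.5 and 24.1 CPM in EHE26, 17.7, 26.9 and 16.1 CPM in EHE17 and 20.1, 16.7 and 10.1 CPM in EHE6. Focad averaged 26.8 ± 3.75 CPM in EHE26, 20.2 ± 5.79 CPM in EHE17 and 15.6 ± 5.06 CPM in EHE6. EHE26 lay above EHE6 and overlapped EHE17, and EHE17 and EHE6 overlapped, with log2 ratios of mean CPM of 0.78 for EHE26 over EHE6, 0.41 for EHE26 over EHE17 and 0.37 for EHE17 over EHE6. Focad and Hacd4 share 14868 bases on opposite strands, and the strand setting of the counting is not given, so reads of that stretch cannot be told apart.

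Set against the whole table, the shares of members whose lines did not overlap were as follows. In EHE26 against EHE17, 8 of 9 members did not overlap, 4 higher (Dmrta1, Gm12602, Hacd4 and Klhl9) and 4 lower (Cdkn2a, Cdkn2b, Gm12606 and Mtap), where 39.0% of all tested genes did not (18.7% higher and 20.3% lower). In EHE26 against EHE6 it was 6 of 9, 5 higher (Dmrta1, Focad, Gm12602, Hacd4 and Klhl9) and 1 lower (Mtap), against 31.3% of all tested genes (16.0% higher and 15.3% lower). In EHE17 against EHE6 it was 2 of 9, Klhl9 higher and Mtap lower, against 12.2% (7.25% higher and 4.94% lower). With calls set at an adjusted p below 0.05 and a change of 1 or more in either direction on the log2 scale, the edgeR quasi-likelihood fit called 1 member, Klhl9, as higher in EHE26 against EHE6 and in EHE26 against EHE17, and none in EHE17 against EHE6. It called 1.26% of all tested genes in EHE26 against EHE6 (1.1% higher and 0.159% lower). The shares were 1.08% in EHE26 against EHE17 (0.89% higher and 0.185% lower) and 0.143% in EHE17 against EHE6 (0.0794% higher and 0.0636% lower). Without EHE26 replicate 1 the Klhl9 call against EHE6 ended, and the call against EHE17 was kept in 1 of the 8 fits that left out a library, the one without EHE6 replicate 3. In that fit, which called 8.58% of all genes in EHE26 against EHE6 and 7.44% in EHE26 against EHE17, Dmrta1, Gm12602, Gm12606 and Hacd4 were called too in both, and Mtap in EHE26 against EHE6. DESeq2, which called 8.27% and 8.92% of all genes in these comparisons, called Gm12602 and Mtap beside Klhl9 in EHE26 against EHE6, and Gm12602 and Hacd4 beside it in EHE26 against EHE17. Without replicate 3 of EHE17 and of EHE6, edgeR called 22.7% of all genes in EHE26 against EHE6 and 21.9% in EHE26 against EHE17. In both it called Cdkn2b, Dmrta1, Gm12602, Gm12606, Hacd4 and Klhl9, and besides them Mtap in the first and Cdkn2a in the second. In EHE17 against EHE6 it called no member and 0.775% of all genes. The log2 ratio of mean CPM of EHE26 over EHE6 was -2.41 for Cdkn2b and -1.68 for Gm12606 without those replicates. Over EHE6 replicate 3 alone it had the opposite sign, at 5.32 and 4.08. As the members were listed with these contrasts known, nothing is read from the counts.

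**Figure D3:**
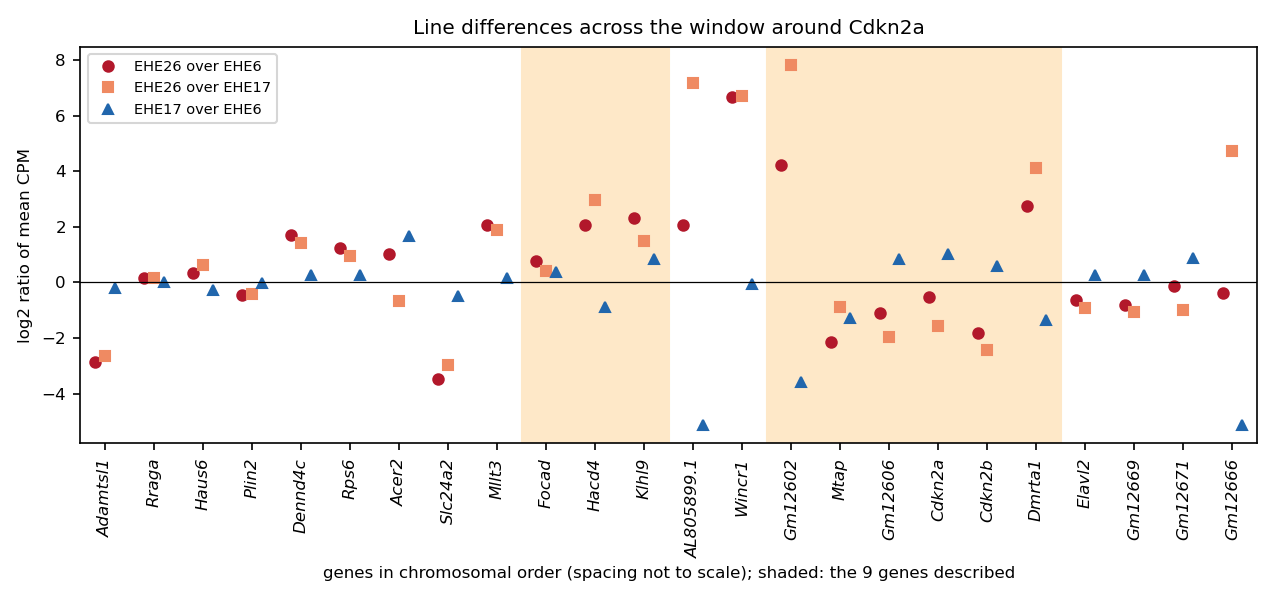
Log2 ratio of mean CPM between lines for the 24 genes within 3 Mb of Cdkn2a that reached a mean of 1 CPM in some line, in chromosomal order with spacing not to scale and the 9 genes shaded. From Gm12602 to Dmrta1 the ratios of EHE26 over EHE17 pass from 7.82 through -0.89, -1.95, -1.56 and -2.42 to 4.10.

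Libraries that stand apart carried much of the spread within EHE6. In replicate 3 of EHE6 Cdkn2a, Cdkn2b and Gm12606, a run of adjacent genes, were each at least 50-fold below both other replicates, as were 9.66% of all tested genes. Cdkn2b was 211-fold higher in replicate 1 than in replicate 3 (95% interval 168 to 269, from the binomial split of the reads) and 213-fold higher in replicate 2 (170 to 270). For Cdkn2a the same ratios were 185 (32.9 to 7318) and 217 (38.7 to 8595), and for Gm12606 they were 50.8 (34.5 to 77.9) and 57.5 (39.2 to 88.3). The intervals cover counting error between these libraries and not the spread between cultures.

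At the same time Dmrta1 and Gm12602 were at least 4-fold above both other EHE6 replicates, as were 4.06% of tested genes, and Hacd4 and Mtap were 4.11 and 3.80 times the mean of those replicates. In replicate 3 of EHE17 Cdkn2b was the 1 member at least 4-fold below replicates 1 and 2, where 12.8% of tested genes were, and Dmrta1 the 1 member at least 4-fold above, where 1.83% were. The summed level of 24 proliferation genes was 5687 CPM in replicate 3 of EHE6, where the other replicates had 2179 and 1145 CPM. For EHE17 it was 3877 CPM in replicate 3, with 841 and 1539 CPM in the others. The summed endothelial markers were 3339 CPM in replicate 3 of EHE6, against 13635 and 15349 CPM. Each of them was below the mean of replicates 1 and 2 there, from 1.34-fold for Pecam1 to 328-fold for Cldn5. Kdr was 42.4-fold below at 22.1 CPM, and Emcn 40.2-fold below at 10.1 CPM. The fibroblast and pericyte markers moved both ways in replicate 3 of EHE6. Pdgfra, Pdgfrb, Rgs5 and Cspg4 were 55.6, 14.7, 20.2 and 4.04 times the mean of replicates 1 and 2, at 252, 22.0, 183 and 2.02 CPM. Acta2 was at 15.1 CPM, against 659 and 268 CPM, and Thy1 at 8.80 CPM, against 398 and 349 CPM. Of the epithelial markers, Krt18 and Krt19 were 15.8 and 54.3 times that mean, and the other 6 were below it. Genes with at least 1 read numbered 20066 in replicate 3 of EHE6, against 24462 and 24698 in replicates 1 and 2. Total counts of these libraries were 44620965, 77491090 and 69366708 in the same order. Replicate 3 of EHE17 had 20682 such genes, and EHE26 had 20618 and 20258. The part of these differences in the levels of Cdkn2a and Cdkn2b was not tested.

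**Figure D4:**
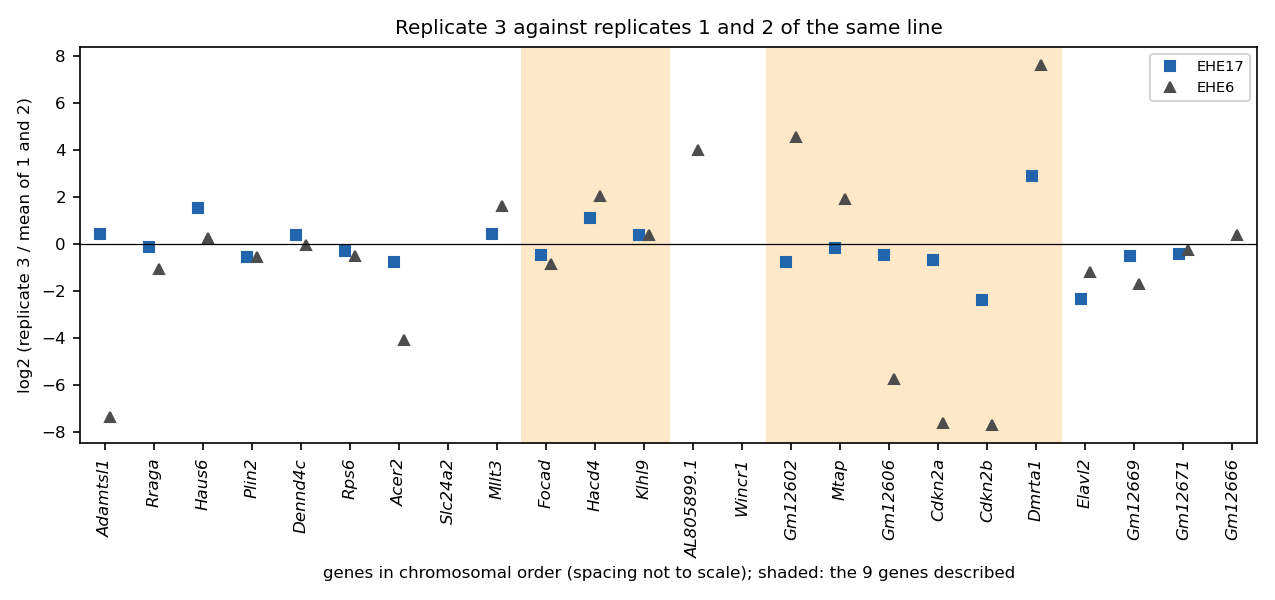
Log2 ratio of replicate 3 to the mean of replicates 1 and 2 for EHE17 and EHE6, over the same genes in the same order, with the 9 genes shaded; a gene with no read on either side of a ratio has no point. In EHE6 Gm12606, Cdkn2a and Cdkn2b are at -5.76, -7.65 and -7.73, between Mtap at 1.93 and Dmrta1 at 7.63.

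The line differences were set out again within each kind of library. Among the third replicates and EHE26, the log2 ratio of EHE26 over EHE17 was -1.06 for Cdkn2a, -0.48 for Cdkn2b, -1.61 for Gm12606 and -0.77 for Mtap. Among the other libraries and EHE26 it was -1.76, -2.88, -2.09 and -0.94. Both EHE26 libraries lay below every EHE17 library for these 4 genes, so any split gives a negative sign, and nothing is read from it. For EHE26 over EHE6 the ratio to replicate 3 alone had the opposite sign: Cdkn2b had a ratio of 5.32 to EHE6 replicate 3 and of -2.41 to the other EHE6 replicates, Cdkn2a 6.54 and -1.11, and Gm12606 4.08 and -1.68. Over all EHE6 libraries the sign was the one seen without replicate 3, and the Cdkn2a value for that library rests on 1 read. Mtap kept its sign there, with -3.13 and -1.20.

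Of 111 annotated genes within 3 Mb of Cdkn2a with a row in the table, 59 had no read in any library and 24 reached a mean of 1 CPM in some line: the 9 members, 11 other named genes and 4 predicted genes. The interferon cluster between Hacd4 and Gm12602 was almost unread: of 18 type I interferon genes, 16 had no read in any library, and Ifnb1 and Ifnz had 36 reads each over all 8. The Ifnb1 reads were 8 and 26 in EHE26 and 0, 2 and 0 in EHE17, with none in EHE6. Near the members, Wincr1, a noncoding RNA, had 0.736 and 2.06 CPM in EHE26, 0 to 0.0401 CPM in EHE17 and 0 to 0.0282 CPM in EHE6. Acer2, an alkaline ceramidase of the Golgi, was at 111 and 27.9 CPM in EHE26, 112, 143 and 73.9 CPM in EHE17 and 45.0, 55.6 and 2.94 CPM in EHE6. Mllt3, a subunit of the super elongation complex, was at 64.4 and 36.7 CPM in EHE26, 10.0 to 16.5 CPM in EHE17 and 7.18 to 22.0 CPM in EHE6. Adamtsl1, a secreted matrix protein gene, was at 1.09 and 1.51 CPM in EHE26, 5.88 to 9.75 CPM in EHE17 and 11.1, 17.0 and 0.0840 CPM in EHE6. Outside Gm12606, Cdkn2a and Cdkn2b, replicate 3 of EHE6 was also the lowest library at Adamtsl1, Rraga, Rps6, Acer2 and Focad, and had no read of Slc24a2 or Wincr1. It was above both other EHE6 replicates at Haus6, Mllt3, Hacd4, Klhl9, Gm12602, Mtap and Dmrta1.

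Dennd4c, a regulator of membrane traffic, was at 122 and 132 CPM in EHE26, 30.3 to 55.7 CPM in EHE17 and 32.7 to 47.1 CPM in EHE6. The ribosomal protein gene Rps6, which has processed copies elsewhere in the genome, was at 1783 and 1669 CPM in EHE26, 699 to 1207 CPM in EHE17 and 576 to 956 CPM in EHE6. Rraga, a GTPase of the mTORC1 pathway, was at 116 and 111 CPM in EHE26, 96.4 to 112 CPM in EHE17 and 58.3 to 124 CPM in EHE6. The spindle gene Haus6, at 12.9 to 53.1 CPM over all libraries, and the lipid droplet gene Plin2, at 77.6 to 154 CPM, overlapped in every pair of lines, as did Rraga and the low-level genes Slc24a2, an ion exchanger, and Elavl2, an RNA-binding protein. Over the 19 tested window genes that are not members, the median fitted log2 fold change was 0.18 for EHE26 against EHE6, 0.26 for EHE26 against EHE17 and 0.05 for EHE17 against EHE6, where over all tested genes it was -0.11, -0.11 and -0.03.

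Genes with the most similar profile were named by Pearson's r of log2 CPM over the 8 libraries, as a measure of likeness among 14698 tested genes that are neither predicted, nor Y-linked, nor members. The libraries share their lines, and replicate 3 of EHE6 is far from the rest for several members. Nearest to Cdkn2b were Mark4, Nos1ap and Pramef8 (r = 0.993, 0.991 and 0.987), to Cdkn2a Speer4a, Bend7 and Stx3 (0.992, 0.992 and 0.989), and to Gm12606 Trim68, Map3k13 and Bfar (0.995, 0.992 and 0.992). Nearest to Mtap were Rhno1, Pfas and Cytip (0.975, 0.968 and 0.960), to Dmrta1 Emilin2, Plekhh2 and Cnpy4 (0.992, 0.991 and 0.987), and to Gm12602 Twist2, Hist1h1d and Tcea3 (0.995, 0.992 and 0.989). Nearest to Klhl9 were Gbp7, H2-K1 and Ddx60 (0.994, 0.984 and 0.984), to Hacd4 Sspn, Fam171b and Cped1 (0.986, 0.986 and 0.983), and to Focad Tesk1, Ano10 and Tmem159 (0.986, 0.984 and 0.979). An r of at least 0.9 was reached by 365 genes for Cdkn2b, 257 for Cdkn2a, 338 for Dmrta1 and 21 for Mtap. Among the members, r was 0.960 for Cdkn2a with Cdkn2b, 0.986 for Cdkn2a with Gm12606, -0.564 for Mtap with Cdkn2b and -0.680 for Dmrta1 with Cdkn2b.

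The proteins on which the INK4 and ARF products act, and the genes known to control the locus, were tested in the fit over all genes. Of 103 such genes in 5 lists, all 103 passed the filter, and the edgeR quasi-likelihood test called 0 in EHE26 against EHE6, 1 in EHE26 against EHE17 and 0 in EHE17 against EHE6. An unadjusted p under 0.05 was found for 15, 13 and 5 of them, where 15.9%, 16.6% and 6.90% of all tested genes had one. DESeq2 called 8, 4 and 3, and edgeR without replicate 3 of EHE17 and of EHE6 called 27, 25 and 0. All genes were called at 8.27%, 8.92% and 2.07% by DESeq2 and at 22.7%, 21.9% and 0.775% without those replicates, so the last counts are near the share of all genes. The gene called by edgeR was Tbx3 (ENSMUSG00000018604), a T-box repressor of the locus, at 47.4 and 104 CPM in EHE26, against 1.65, 0.797 and 0.441 CPM in EHE17. It rose in EHE26 against EHE17 by 6.29 ± 1.10 (log2 fold change ± SE, adjusted p = 0.0455), with both EHE26 libraries above all 3 of EHE17. In EHE6 it was at 4.53, 4.30 and 33.0 CPM, highest in replicate 3. The call ended in 7 of the 8 fits that left out 1 library, with an adjusted p of 0.0564 to 0.218 in those, and was kept without EHE6 replicate 3 (adjusted p = 0.00230).

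The cyclin, CDK, RB and E2F list had no member among 22 called by edgeR on all libraries in any comparison. Its median log2 fold change was -0.19 in EHE26 against EHE6, 0.08 in EHE26 against EHE17 and -0.25 in EHE17 against EHE6. Without replicate 3 of EHE17 and of EHE6, edgeR called E2f1, E2f8, Rbl1 and Rbl2 in both EHE26 comparisons, and E2f7 in EHE26 against EHE17. That fit called 22.7% of all genes in EHE26 against EHE6 and 21.9% in EHE26 against EHE17. Cdk4, a kinase bound by both INK4 proteins, averaged 306 ± 4.30 CPM in EHE26, 512 ± 142 CPM in EHE17 and 408 ± 78.2 CPM in EHE6. Cdk6, its partner in the same role, averaged 82.9 ± 2.78, 58.3 ± 8.02 and 69.3 ± 11.2 CPM in EHE26, EHE17 and EHE6, and their activator Ccnd1 averaged 1888 ± 855, 1231 ± 181 and 1494 ± 163 CPM. Rb1, the substrate of these kinases, averaged 18.8 ± 8.07, 17.6 ± 5.59 and 31.2 ± 15.9 CPM, and E2f1, which RB restrains, 54.5 ± 6.78, 40.2 ± 32.1 and 42.6 ± 30.7 CPM in that order of lines.

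Among 6 other CDK inhibitors edgeR on all libraries called none either, with a median log2 fold change of 1.10 in EHE26 against EHE6, 1.09 in EHE26 against EHE17 and -0.35 in EHE17 against EHE6. Cdkn2c, which encodes the related inhibitor p18INK4c, was at 155 and 101 CPM in EHE26, 9.51, 23.0 and 68.0 CPM in EHE17 and 12.9, 7.86 and 83.9 CPM in EHE6. Cdkn2d, which encodes p19INK4d, was at 66.1 and 51.0 CPM in EHE26, 4.90, 9.55 and 23.1 CPM in EHE17 and 7.95, 4.80 and 60.9 CPM in EHE6. Both were thus highest where Cdkn2b was low, in EHE26 and in the third replicates. This was not limited to them. In replicate 3 of EHE6, 4 of the 6 (Cdkn1b, Cdkn2c, Cdkn2d and Cdkn3) were at least 4-fold above both other replicates. In replicate 3 of EHE17 Cdkn3 was the 1 that was. The log2 fold changes of Cdkn2c and Cdkn2d in EHE26 against EHE17 were 1.93 ± 1.06 (edgeR adjusted p = 0.382) and 2.23 ± 1.05 (edgeR adjusted p = 0.324). Both were called in EHE26 against EHE6 without EHE6 replicate 3, and in both EHE26 comparisons without replicate 3 of EHE17 and of EHE6. Cdkn1a, a p53 target that encodes p21, averaged 196 ± 94.0 CPM in EHE26, 162 ± 37.3 CPM in EHE17 and 239 ± 62.1 CPM in EHE6.

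None of 24 genes of the ARF, MDM2 and p53 list was called by edgeR on all libraries. Its median log2 fold change was -0.09 in EHE26 against EHE6, -0.15 in EHE26 against EHE17 and -0.05 in EHE17 against EHE6. Mdm2, the ubiquitin ligase bound by p19ARF, averaged 158 ± 77.4 CPM in EHE26, 105 ± 55.1 CPM in EHE17 and 118 ± 28.8 CPM in EHE6. Trp53, its target, averaged 112 ± 11.8 CPM in EHE26, 213 ± 65.7 CPM in EHE17 and 215 ± 36.7 CPM in EHE6. Its log2 fold change was -0.94 ± 0.32 in EHE26 against EHE6 (edgeR adjusted p = 0.247). Without replicate 3 of EHE17 and of EHE6, Trp53 was called in EHE26 against EHE17 and not in EHE26 against EHE6. The lowest adjusted p of the list was that of Fas, a death receptor and p53 target singled out after its values were seen. It stood at 7.43 and 4.50 CPM in EHE26, 0.520 to 1.06 CPM in EHE17 and 0.735 to 0.833 CPM in EHE6, and its adjusted p was 0.0579 in EHE26 against EHE6 and 0.0508 in EHE26 against EHE17. Fas passed in both comparisons without EHE6 replicate 3 (edgeR adjusted p = 0.0340 and 0.0173) and with DESeq2 (adjusted p = 3.31e-06 and 4.00e-07). Over the edgeR fits that left out 1 of the other EHE6 libraries it did not, with an adjusted p of 0.220 and 0.231 in EHE26 against EHE6, and 0.0929 and 0.0947 in EHE26 against EHE17.

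Of 32 regulators of the locus, Tbx3 was the 1 called by edgeR on all libraries. The median log2 fold change of the list was -0.01 in EHE26 against EHE6 and 0.05 in EHE26 against EHE17. Tbx2 and Cbx7 were named after their values were seen. With equal replicate numbers taken as pairs they stood at -4.08 and -4.30 in EHE26 against EHE6 (edgeR log2 fold change). Without replicate 3 of EHE17 and of EHE6 both were called in both EHE26 comparisons. The Polycomb genes Bmi1 and Ezh2 averaged 155 ± 10.9 and 55.1 ± 4.36 CPM in EHE26, 100 ± 49.6 and 36.1 ± 24.6 CPM in EHE17 and 104 ± 44.3 and 64.7 ± 49.0 CPM in EHE6. The repressor Twist1, named after its values were seen, was at 68.0 and 62.8 CPM in EHE26, 0.410, 0.188 and 1.10 CPM in EHE17 and 0.229, 0.409 and 27.8 CPM in EHE6, and was not called in EHE26 against EHE17 (6.87 ± 1.98, edgeR adjusted p = 0.165). It was called there without EHE6 replicate 3, without replicate 3 of EHE17 and of EHE6, with those replicates and EHE26 alone, and with no low-count filter. In replicate 3 of EHE6 Tbx3, Twist1 and Id2 were at least 4-fold above replicates 1 and 2, the only 3 of the 32, where 4.06% of all tested genes were, and Cbx7 was the 1 at least 4-fold below, where 17.6% were. Of the 19 genes around methylthioadenosine, polyamines and PRMT5, none was called by edgeR on all libraries. Without replicate 3 of EHE17 and of EHE6, edgeR called Mat2a, Odc1 and Wdr77 in EHE26 against EHE6, and Odc1 in EHE26 against EHE17. Prmt5, an arginine methyltransferase that methylthioadenosine inhibits, averaged 73.9 ± 5.23 CPM in EHE26, 95.1 ± 38.8 CPM in EHE17 and 113 ± 31.9 CPM in EHE6. Mat2a, which makes S-adenosylmethionine, averaged 131 ± 5.64, 216 ± 59.7 and 284 ± 106 CPM in the same order, a log2 fold change of -1.11 ± 0.37 in EHE26 against EHE6 (adjusted p = 0.238).

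**Figure D5:**
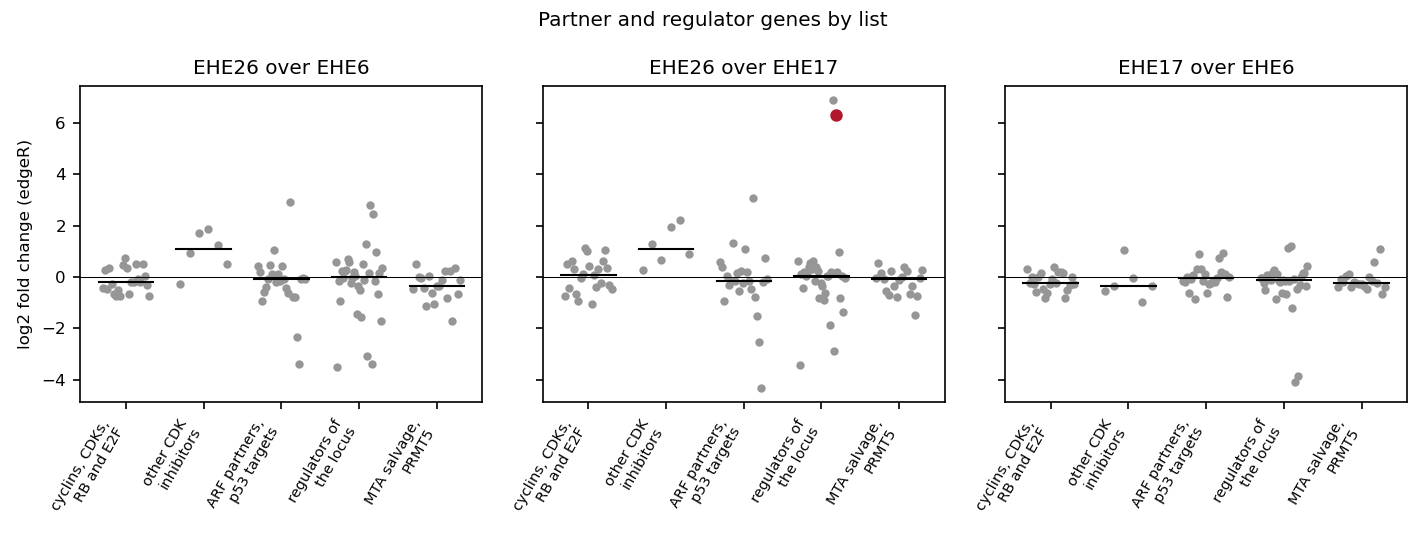
Log2 fold changes of the 103 partner and regulator genes by list in the 3 comparisons (edgeR), with a bar at the median of each list, grey points for genes not called and a red point for the called gene. The red point, Tbx3 at 6.29 in EHE26 over EHE17, is the 1 call.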

How the data were processed

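Polyadenylated RNA of 8 libraries was sequenced, per the labels' protocols after NEBNext Ultra II library preparation. Alignment by the authors used HISAT2 and mm10, per the submitters' processing notes; the version, counting tool, annotation and strand setting are not given in the sources used here. Deposited values are unnormalized read counts for each Ensembl gene, and each sample's own file matched its column of the series table (8 of 8). GENCODE release M21 (GRCm38) gave symbols, spans and exon lengths for 55141 of 55401 identifiers; no library had more than 0.0181% of its counts in the rest.

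Counts were filtered with filterByExpr by line, scaled with TMM and fitted with edgeR 4.0.16 (quasi-likelihood test) in R 4.3.3, in a single fit of the 8 libraries by line. Benjamini-Hochberg adjustment ran over the 18882 genes tested, and calls need an adjusted p below 0.05 with a change of 1 or more on the log2 scale. SE is the log2 fold change divided by the square root of F. The common biological coefficient of variation was 0.600. The procedure was tested on simulated counts without an outlying library, which cannot show how it behaves with the third replicates of these data. Log2 CPM used a prior count of 2. Intervals and counts of a few reads cover counting error only.

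The members, gene lists and tests were chosen with earlier results of these data known. Named genes are the members, genes within 3 Mb of Cdkn2a with a mean of at least 1 CPM in some line, 14 partner genes named whatever their values, called list genes (up to 6 a list), and for each member the 3 most similar profiles. Across genes, deviations from the line mean correlated at 0.132, 0.180 and 0.574 between EHE17 and EHE6 libraries of the same replicate number. EHE17 replicate 1 with EHE6 replicate 2 (0.623) and EHE17 replicate 2 with EHE6 replicate 1 (0.536) correlated more than replicates 1 and 2 did by number. Whether the numbers pair the libraries is thus not settled, and the main fit used the line only. DESeq2 1.42.0, RLE scaling, no low-count filter, the replicate block and leaving out libraries were tried as alternatives.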

Additional observations from a re-analysis of the deposited data

How the results depend on the processing

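The ratios between lines of the 9 members kept their sign under both other scalings (54 of 54), and the largest move was 0.14 on the log2 scale. Leaving out 1 library changed the sign of 3 of 144: Cdkn2a in EHE26 over EHE6 without EHE6 replicate 2 (0.0068), and Dmrta1 (4.70) and Hacd4 (0.13) in EHE17 over EHE6 without EHE6 replicate 3. The member ratios within and without the replicates numbered 3 were added after seeing the data.

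Counts of called genes moved more. In the order EHE26 against EHE6, EHE26 against EHE17 and EHE17 against EHE6, edgeR called 237, 203 and 27 genes, of which 0, 1 and 0 were among the 103 partner and regulator genes. RLE scaling gave 230, 204 and 27. No low-count filter gave 547, 745 and 142 (0, 3 and 1 of the 103), and DESeq2 gave 1562, 1685 and 390 (8, 4 and 3). The replicate block gave 1459, 1860 and 33 (10, 13 and 0). It takes equal numbers as pairs, which is not settled for EHE17 with EHE6. EHE26 shares only a number with the other lines (correlations of deviations 0.182 and -0.0981 with EHE6, -0.0636 and -0.115 with EHE17). With that block Dmrta1, Gm12602 and Hacd4 joined Klhl9 among the called members in both EHE26 comparisons, and Cdkn2c, Cdkn2d, Fas and Twist1 were called in both (edgeR adjusted p = 0.0167, 0.0286, 0.0305 and 0.0253 against EHE6, and 0.0168, 0.0162, 0.0259 and 0.00985 against EHE17). Without replicate 3 of EHE17 and of EHE6 there were 4302, 4150 and 147 (27, 25 and 0), and with only those replicates and EHE26 there were 334, 612 and 473 (0, 3 and 2), where single libraries are assumed to vary like EHE26. Leaving out 1 library gave 65 to 1632, 2 to 1415 and 1 to 54 genes (0 to 13, 0 to 4 and 0 to 0 of the 103), the highest each time without EHE6 replicate 3. The cause of these moves was not tested. Depth limits Gm12602 in EHE17 and in EHE6 replicates 1 and 2, Dmrta1 in EHE6 replicates 1 and 2, and Cdkn2a in EHE6 replicate 3.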
